A study of Mus musculus with 48 samples.

Results

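The genes described here encode subunits of the voltage-gated calcium channels. They were chosen by name and not by a rule on measured values, though earlier results of these data were known. Of them 7 encode pore-forming α1 subunits (Cacna1a, Cacna1b, Cacna1c, Cacna1d, Cacna1e, Cacna1g and Cacna1h). The other 3 encode auxiliary α2δ subunits (Cacna2d1, Cacna2d2 and Cacna2d3). These 10 genes were matched by Ensembl identifier among the 48526 genes of the count table, and all 10 passed the filter on low counts in every comparison. The RNA came from the cortex of male C57BL/6JRj mice without any treatment or genetic change, 4 mice at each of 3 ages: 3 weeks (3w), a middle age that the sample labels give as 6 months and the protocol as 5 months (5m), and 18 months (18m). From each of the 12 mice RNA was sequenced from total homogenate (TH) and from synaptosomes (SYN), a preparation enriched in pinched-off nerve terminals, and each of these was taken either directly (input_TH and input_SYN) or after sedimentation through a sucrose cushion, which collects RNA associated with ribosomes (SC_TH and SC_SYN). This gave 48 libraries in 12 groups of 4. The design asked where and at which age each RNA was more or less abundant in the synaptosome and in its ribosome-associated pool.

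In a voltage-gated calcium channel the α1 subunit forms the pore and senses the membrane voltage, and its identity sets the current type. P/Q-type and N-type channels open at the presynaptic terminal and trigger release of neurotransmitter, L-type channels couple electrical activity to gene expression and dendritic signalling, R-type channels act at both terminals and dendritic spines, and T-type channels open at low voltage and shape burst firing. The α2δ subunits sit largely outside the cell and promote trafficking of the channel to the membrane, and the cytoplasmic β subunits bind the α1 subunit from the inside.

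Total counts ran from 1780267 to 18590040 reads per library, lowest in input_SYN, and each member held at least 109 reads in every library, so counting error was at most 9.58% of a value. Libraries of one group differed by 1.89 to 29.5 times the variance that counting error gives. Because the tissue was bulk cortex, fewer cells of a type and less RNA per cell cannot be told apart in any of the results. The fractions behaved as labelled for the nuclear RNA list, of which 5 of 5 genes were lower in input_SYN than in input_TH at each age, and whose summed level was 19606 to 23610 reads per 1000000 counted reads (CPM) in input_TH and 1392 to 3650 CPM in input_SYN. Markers of glia were not removed from the synaptosomes: the 8 astrocyte markers summed to 4759 to 6343 CPM in input_TH and to 10941 to 14168 CPM in input_SYN, and the neuronal list to 3759 to 4435 CPM and 4583 to 6434 CPM. No astrocyte, microglial, neuronal or oligodendrocyte marker was at 0 in any library.

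The level of each gene was first compared per kilobase of exonic length. In SC_SYN the order was led at all 3 ages by Cacna1e, the R-type α1 gene, with 47.3, 52.1 and 48.5 CPM per kb at 3w, 5m and 18m, followed by Cacna1a, the P/Q-type gene, with 42.0, 43.0 and 35.9 CPM per kb. Cacna1d, an L-type gene, was last with 4.9, 4.8 and 4.6 CPM per kb. The libraries of Cacna1e and Cacna1a overlapped at 3w and at 18m, so their order was not separated from the spread there, whereas at 5m they did not overlap. Cacna1d stayed below its next neighbour without overlap at all 3 ages in SC_SYN and input_SYN.

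In SC_TH Cacna1e also led at 5m and 18m, without overlap with Cacna1a, and Cacna1d was last at each age, though at 3w its libraries overlapped with those of Cacna1h. In input_TH the order was different at the top and at the bottom: Cacna1a led with 35.8, 29.6 and 30.9 CPM per kb, ahead of Cacna1e with 28.2, 29.5 and 27.6, and the libraries of both overlapped at 5m only. Cacna2d2 was last at each age in input_TH with 7.0, 6.7 and 8.1 CPM per kb, overlapping with Cacna1d at 18m. At 5m the libraries of Cacna2d1 and Cacna1g overlapped, as did those of Cacna2d3, Cacna1h and Cacna1c as neighbours. These levels rest on the length of all annotated exons joined, from 7947 bases for Cacna2d2 to 25228 bases for Cacna1e, and transcripts that use only some of these exons would shift a gene in this order. Adding up the 10 genes, they held 0.228 to 0.242% of the reads in the 3 input_TH groups and 0.372 to 0.377% in the 3 input_SYN groups.

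**Figure D1:**
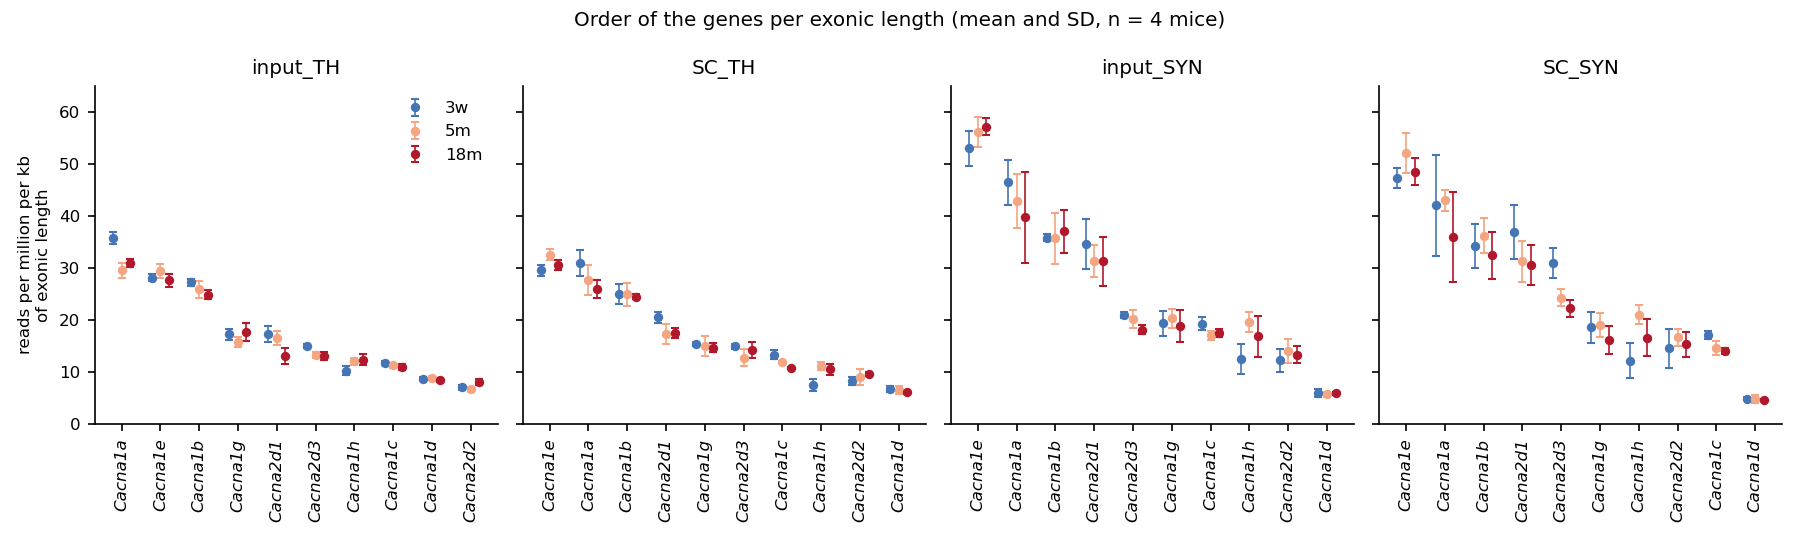
CPM per kb of joined exonic length (linear axis from 0) for the 10 genes in each of the 4 fractions, ordered within a fraction by their mean over ages; points are means of 4 mice and bars are SD. Cacna1e led both synaptosome fractions and Cacna1d closed them, whereas Cacna1a led input_TH and Cacna2d2 closed it.

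The comparison of synaptosomes with total homogenate at each age asked which of these RNAs are more abundant in the synaptosome preparation. With normalisation by the trimmed mean of M-values (TMM), 9 of the 10 genes were higher in SC_SYN than in SC_TH at 3w, 5m and 18m, and 9 of 10 also in input_SYN over input_TH at each age. None was lower. The 27 calls in the ribosome-associated RNA had log2 fold changes from 0.67 to 1.59, with adjusted p-values up to 6.66e-05 (edgeR's quasi-likelihood test with Benjamini-Hochberg adjustment over all genes tested), and the 27 calls in input RNA had 0.68 to 1.82 with adjusted p-values up to 8.81e-06. Cacna1d was the gene that did not pass in any of the 6 comparisons in these main fits. Leaving out 1 mouse gave 9 to 10 members in ribosome-associated RNA at 5m, so Cacna1d did pass in such a fit.

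Many genes passed these tests. Among all genes tested, 31.1, 32.1 and 29.9% were higher in SC_SYN than in SC_TH at 3w, 5m and 18m and 32.4, 35.8 and 32.2% were lower. For input RNA 31.7, 32.6 and 32.9% were higher and 39.3, 40.1 and 39.4% lower. The median log2 fold change over the 10 members was 1.11, 1.24 and 1.09 in ribosome-associated RNA, beside -0.042, -0.091 and -0.070 over all genes tested, and 1.01, 1.25 and 1.10 in input RNA, beside -0.18, -0.18 and -0.12. Scaling mattered here: when libraries were scaled by their size alone, the median log2 fold change of all genes moved by -0.65 to -0.53, and the share of higher genes among those called went from 47.3 to 49.0% down to 20.5 to 25.4% in ribosome-associated RNA and from 44.6 to 45.5% to 23.8 to 24.6% in input RNA.

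Cacna1e (chromosome 1, 154390731 to 154884501, minus strand, GRCm38 as for all positions here) had the most reads of the 10 genes, with at least 2152 in every library. In SC_TH at 3w its 4 libraries held 761, 752, 765 and 704 CPM and in SC_SYN of the same mice 1148, 1212, 1255 and 1158 CPM. At 5m the values were 854, 797, 808 and 829 CPM in SC_TH against 1225, 1234, 1387 and 1414 CPM in SC_SYN. The compartments did not overlap, and all 12 mice had more in the synaptosome, by CPM as well as with TMM. The log2 fold change was 1.19 to 1.26 in ribosome-associated RNA (SE 0.08 at each age) and 1.48 to 1.62 in input RNA (SE 0.07).

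Cacna1d (chromosome 14, 30039939 to 30491455, minus strand) encodes an L-type pore that opens at more negative voltages than that of Cacna1c. In input_TH its libraries held 113, 110, 104 and 112 CPM at 3w and in input_SYN 77.4, 75.4, 85 and 61.2 CPM. All 12 mice had less Cacna1d in CPM in input_SYN than in input_TH, and the same 12 had less in SC_SYN than in SC_TH. With TMM the log2 fold change lay between 0.025 and 0.14, with adjusted p-values from 0.215 to 0.814 in edgeR's test, whereas with library size it turned to -0.63 to -0.39 with adjusted p-values of at most 0.0015. The direction for Cacna1d therefore rested on the scaling, while the estimates of the other 9 genes stayed above 0 under both scalings. Part of its exons (4.67% of the joined length) overlaps Chdh on the opposite strand, a gene with 2094 reads over all libraries beside 33348 for Cacna1d, and the reads were counted without regard to strand.

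The other L-type gene, Cacna1c (chromosome 6, 118587240 to 119196418, minus strand), the main L-type pore of cortical neurons, rose in synaptosomes by log2 fold changes of 0.88 to 0.90 in ribosome-associated RNA (SE 0.08) and of 1.23 to 1.28 in input RNA (SE 0.07). Its input_TH libraries lay between 223 and 259 CPM over all ages and its input_SYN libraries between 349 and 444 CPM. The spread between mice was small in every group, with a coefficient of variation of at most 9.25%.

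The presynaptic P/Q-type and N-type genes stood close to each other. Cacna1a (chromosome 8, 84388440 to 84640246, plus strand) was higher in SC_SYN by 0.98 to 1.22 on the log2 scale and Cacna1b (chromosome 2, 24603887 to 24763152, minus strand) by 0.94 to 1.12. At 5m the SC_SYN libraries of Cacna1a held 469, 477, 520 and 499 CPM against 341, 280, 295 and 345 CPM in SC_TH, without overlap. At 3w they held 578, 338, 445 and 559 CPM against 353, 322, 390 and 349 CPM, and the library of mouse 188 fell inside the homogenate range. In input RNA 11 of 12 mice had more Cacna1a in the synaptosome, and for Cacna1b all 12 did.

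The T-type genes Cacna1g (chromosome 11, 94408391 to 94474198, minus strand) and Cacna1h (chromosome 17, 25374285 to 25433783, minus strand) were also higher in synaptosomes. For Cacna1g the log2 fold change was 0.67 to 0.93 in ribosome-associated and 0.68 to 1.02 in input RNA, and 10 of 12 mice had more by CPM in each. Scaled by library size its call was lost at 18m in both kinds of RNA and at 3w in input RNA, with log2 fold changes of 0.14, 0.10 and 0.17. Cacna1h was higher by 1.19 to 1.501 in ribosome-associated RNA and by 0.89 to 1.35 in input RNA.

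Among the α2δ genes, Cacna2d1 (chromosome 5, 15934691 to 16374511, plus strand), whose product binds gabapentin, had 245, 267, 242 and 264 CPM in SC_TH and 395, 538, 480 and 418 CPM in SC_SYN at 3w. Its log2 fold change in input RNA reached 1.82 at 18m with TMM (SE 0.10). In CPM, which carries no TMM factor and so gives a smaller ratio between the compartments, the levels were 162 ± 18.5 in input_TH and 388 ± 58.9 in input_SYN (SD, n = 4). Cacna2d2 (chromosome 9, 107399612 to 107529343, plus strand), the other gabapentin-binding form, was higher by 1.20 to 1.47 in ribosome-associated RNA and by 1.29 to 1.74 in input RNA. Cacna2d3 (chromosome 14, 28904943 to 29721864, minus strand) was higher by 1.59 at 3w in ribosome-associated RNA and by 1.17 at 18m. All 12 mice had more of each of these 3 genes in synaptosomes, in both kinds of RNA.

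**Figure D2:**
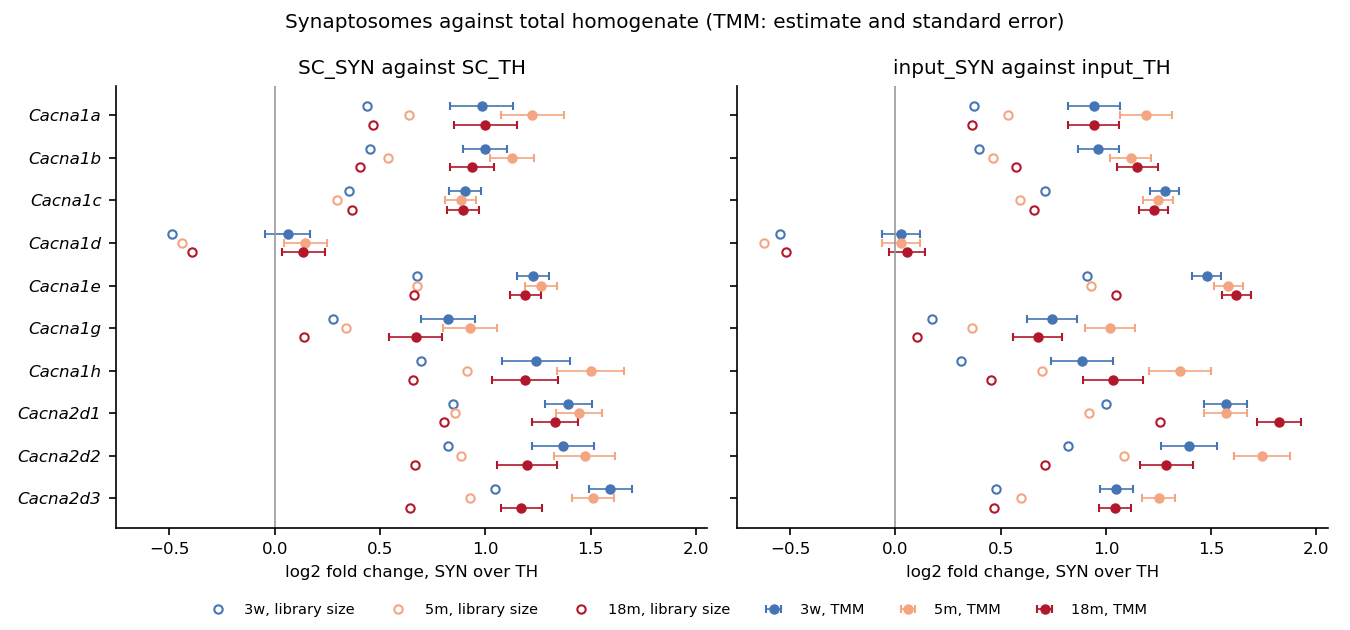
Log2 fold change of SYN over TH for the 10 genes at 3 ages, in ribosome-associated (left) and input RNA (right); filled points are TMM estimates with their standard errors and open points the estimates with library size. The 9 genes other than Cacna1d lay above 0 under both scalings, and Cacna1d lay near 0 with TMM and below 0 with library size.

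Other genes for subunits of voltage-gated calcium channels did not all follow the members. Of 10 further subunit genes, Cacna1f and Cacng1 were too low to be tested. At 3w, 5m and 18m, 5, 4 and 3 of the 8 tested were higher in SC_SYN and 3 were lower at each age, and in input_SYN 3, 3 and 2 were higher and 3, 2 and 2 lower. Their median log2 fold change was 0.83, 0.70 and 0.53 in ribosome-associated RNA and 0.67, 0.33 and 0.14 in input RNA. Cacna1i, the third T-type pore gene, rose at 3w in ribosome-associated RNA by a log2 fold change of 1.22 with TMM, with levels of 277 CPM in SC_TH and 443 CPM in SC_SYN before TMM. The β subunit genes were split: Cacnb2 and Cacnb4 fell by 1.35 and 1.12 on the log2 scale with TMM at 3w in ribosome-associated RNA, with 56.7 and 317 CPM in SC_TH and 15.2 and 99.8 CPM in SC_SYN before TMM, and Cacnb1 fell by 0.62. Cacnb3 was called higher with TMM (0.51 at 3w), but its CPM was 188 ± 13.0 in SC_TH and 183 ± 8.0 in SC_SYN, so that its direction at 3w also depended on the scaling. Cacna1s and Cacng6, called higher in some of these comparisons, stayed below 2 CPM on average in every group.

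Of 26 genes that act with the channels or on the calcium that they admit, 13, 14 and 16 were higher and 5, 6 and 6 lower in SC_SYN than in SC_TH at 3w, 5m and 18m. In input_SYN 16, 16 and 17 were higher and 4 were lower at each age. Genes for calcium pumps and exchangers led the upward side: at 5m in ribosome-associated RNA the sodium-calcium exchanger gene Slc8a2 rose by 1.90, the endoplasmic reticulum pump gene Atp2a2 by 1.83, the plasma membrane pump gene Atp2b3 by 1.76 and Slc8a1 by 1.56 on the log2 scale. On the downward side were the ryanodine receptor gene Ryr3 (-1.36), the calmodulin gene Calm2 (-1.22), the active zone scaffold gene Erc2 (-1.07) and Rem2 (-0.66), which encodes a small GTPase that binds β subunits.

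Marker lists moved in the same comparison. At 5m all 8 astrocyte markers were higher in SC_SYN than in SC_TH, with a median log2 fold change of 1.65, and their summed level was 6830 to 7625 CPM in SC_TH and 13427 to 15209 CPM in SC_SYN. All 8 microglial markers were higher too (median 1.61, summed level 347 to 440.0 CPM against 771 to 949.6 CPM). Of the 8 general neuronal markers 1 was higher and 6 were lower (median -0.50), while in input RNA 3 were higher and 1 lower (median 0.13), and of the 6 excitatory neuron markers 3 in ribosome-associated RNA were higher and 3 lower (median 0.44). All 7 endothelial markers were lower (median -3.07). The part of these cell types in the enrichment of the calcium channel genes was not tested.

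The comparison between ages asked which RNAs change from the young to the adult and from the adult to the old animal. Cacna1h, a T-type pore gene, rose from 3w to 5m in 3 of the 4 fractions, and it was the only member that edgeR called between ages in SC_SYN, SC_TH or input_SYN. From 3w to 5m DESeq2 called Cacna2d3 in SC_SYN and Cacna1e and Cacna2d1 in SC_TH as well. From 5m to 18m no member passed in those 3 fractions. In input_TH 4 other members passed, 2 of them at each step.

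In SC_SYN the 4 libraries of Cacna1h at 3w held 160, 83.0, 109 and 124 CPM (mice 187 to 190) and those at 5m held 224, 181, 206 and 210 CPM. Every library at 5m was above every library at 3w. The mean went from 119 ± 32.3 to 205 ± 18.3 CPM (SD, n = 4), a log2 fold change of 0.84 (SE 0.19, adjusted p = 0.0147, edgeR's quasi-likelihood test with Benjamini-Hochberg adjustment). In SC_TH the same gene went from 80.5, 67.7, 84.1 and 59.2 CPM to 118, 99.0, 108 and 111 CPM. Here too the groups did not overlap, and the log2 fold change was 0.59 (SE 0.10, edgeR adjusted p = 0.00103). In input_SYN the libraries held 161, 121, 99.3 and 107 CPM at 3w and 186, 169, 198 and 213 CPM at 5m. Again every older library was higher, and the log2 fold change was 0.64 (SE 0.17, edgeR adjusted p = 0.0463). In input_TH the value was 0.20 (SE 0.07, edgeR adjusted p = 0.0814), from 99.9 ± 8.1 to 118 ± 6.5 CPM, and the call was not made although the libraries did not overlap.

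The calls in SC_SYN and SC_TH were kept in 13 of 13 alternative settings, with log2 fold changes of 0.47 to 1.01 and 0.47 to 0.66. The call in input_SYN was kept in 6 of 13, and it was lost in 7 of the 8 fits that left out 1 mouse, those without mouse 188, 189, 190, 191, 192, 193 or 194, with adjusted p-values of 0.0647 to 0.129. From 5m to 18m Cacna1h had log2 fold changes of -0.38 in SC_SYN, -0.24 in input_SYN, -0.076 in SC_TH and 0.085 in input_TH, none of which passed. Its 18m libraries in SC_SYN held 128, 194, 188 and 137 CPM, a range that overlapped with both younger ages.

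Among all genes tested, 8.05% changed in SC_SYN from 3w to 5m, 17.9% in SC_TH, 3.22% in input_SYN and 11.8% in input_TH, and 1, 1, 1 and 2 of the 10 members did. From 5m to 18m 0.014% of genes changed in SC_SYN and 2.17% in SC_TH, with 0.139% in input_SYN and 15.5% in input_TH, and 0, 0, 0 and 2 members did. In the first 3 of these no member had an unadjusted p under 0.05 in edgeR's test, and DESeq2 called none, with an unadjusted p of 0.0347 for Cacna1c in SC_TH and 0.0424 for Cacna2d3 in input_SYN. With library size the higher share of called genes went from 40.3 to 59.2% in input_TH from 3w to 5m, from 52.7 to 32.6% in input_TH from 5m to 18m, from 50.0 to 39.2% in SC_SYN from 3w to 5m, and from 50.0 to 66.7% in SC_SYN from 5m to 18m, where 2 genes were called with TMM.

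In input_TH Cacna1a fell from 3w to 5m. Its libraries held 392, 423, 404 and 416 CPM at 3w and 314, 351, 337 and 349 CPM at 5m, with no overlap (fell by 0.32 on the log2 scale, SE 0.05, edgeR adjusted p = 0.000689). Cacna2d3 fell in the same step from 135, 132, 128 and 128 CPM to 110, 115, 117 and 123 CPM, also without overlap (by 0.22, SE 0.05, edgeR adjusted p = 0.0105). From 5m to 18m Cacna2d2 rose from 56.3, 48.4, 53.3 and 53.5 CPM to 63.0, 66.1, 59.6 and 70.3 CPM, a log2 fold change of 0.34 (SE 0.07, edgeR adjusted p = 0.00594).

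In that later step Cacna2d1 fell from 188, 213, 223 and 197 CPM to 178, 147, 178 and 145 CPM (by 0.29, SE 0.08, edgeR adjusted p = 0.0199). The groups did not overlap, but the call was lost with an offset for GC content and length, which left a log2 fold change of -0.094 (adjusted p = 0.396), and in the fits without mouse 192, 193, 196 or 198, with adjusted p-values of 0.0594 to 0.0720. The read-weighted mean GC content of the input_TH libraries was 50.5 to 51.1% at 5m and 51.2 to 52.3% at 18m. The transcript of Cacna2d1 was the poorest in GC of the 10, with 40.69%. All 4 input_TH calls were lost when the 48 libraries were fitted together, with adjusted p-values of 0.164 to 0.251, while the log2 fold changes in that fit were -0.32 for Cacna1a, -0.21 for Cacna2d3, -0.29 for Cacna2d1 and 0.34 for Cacna2d2.

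Marker lists also moved in input_TH. From 3w to 5m all 8 oligodendrocyte markers fell, with a summed level of 6403 to 8117 CPM at 3w and 2683 to 2978 CPM at 5m. From 5m to 18m 4 of 6 inhibitory neuron markers rose, with a summed level of 565 to 603 CPM at 5m and 650.3 to 709 CPM at 18m. The nuclear RNA list summed to 22860 to 23314 CPM at 5m and 19606 to 21549 CPM at 18m, with 1 of 5 genes higher and 1 lower. Their part in the 4 calls in input_TH was not tested.

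**Figure D3:**
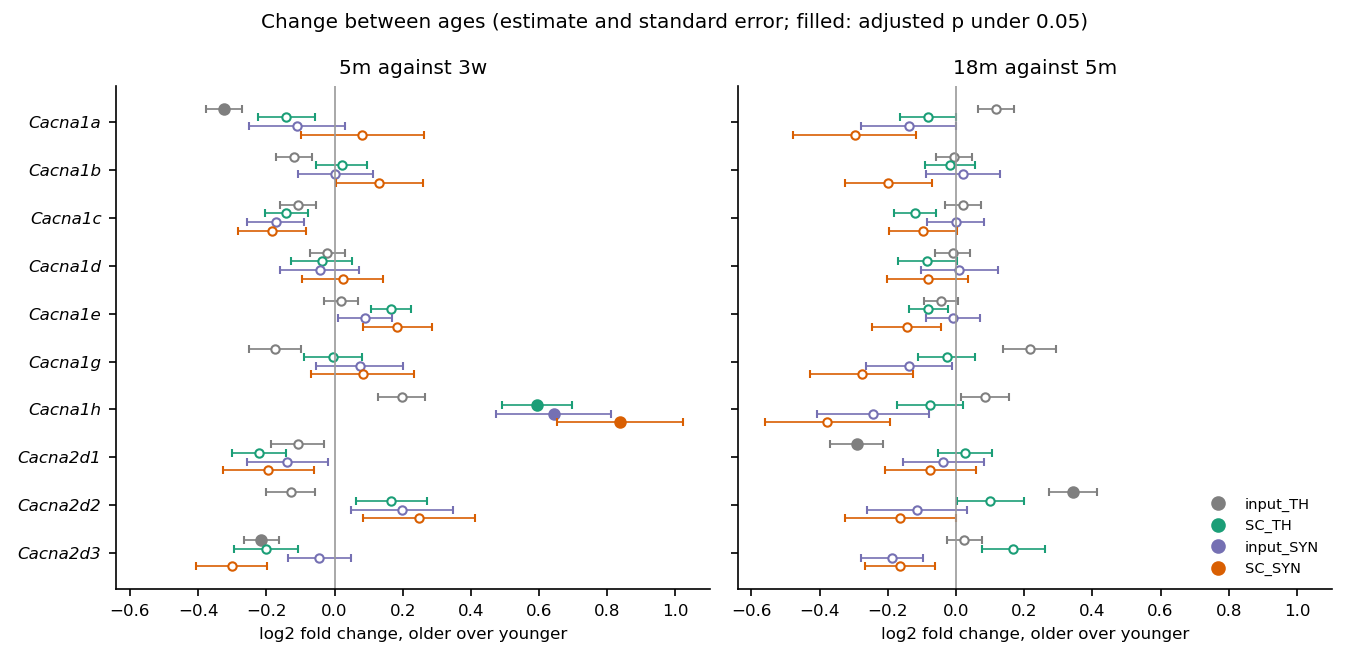
Log2 fold change between neighbouring ages (older over younger) for the 10 genes in 4 fractions, with standard errors; filled points passed at adjusted p under 0.05 in edgeR's test. The 3 filled Cacna1h points at the step from 3w to 5m lay between 0.59 and 0.84, and no member was filled outside input_TH at the step from 5m to 18m.

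Some members that did not pass had libraries that separated the ages. The share of all genes whose libraries separated in this way was not counted, here or for the members above, so it is given as a description. In SC_SYN Cacna2d3 held 283, 297, 256 and 243 CPM at 3w and 194, 226, 208 and 219 CPM at 5m, without overlap, and its log2 fold change of -0.30 (SE 0.10) had an edgeR adjusted p of 0.0845, while DESeq2 gave an adjusted p of 0.022. In SC_TH Cacna1e had a log2 fold change of 0.17 from 3w to 5m (SE 0.06, edgeR adjusted p = 0.0539, DESeq2 adjusted p = 0.0148), with all 4 libraries at 5m above those at 3w. Cacna2d1 had a DESeq2 log2 fold change of -0.23 in SC_TH (DESeq2 adjusted p = 0.0431).

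Among further subunit genes Cacna2d4, an α2δ gene known for its role in the retina, was the one called between ages. It fell by 1.44 in SC_SYN and by 1.01 in SC_TH, and by 1.91 and 1.19 in the matching input RNA, on the log2 scale from 3w to 5m, at levels of 5.7 CPM or less, and none of these genes was called from 5m to 18m in any fraction (unadjusted p under 0.05 for 2 genes in each synaptosome fraction and 0 in each homogenate fraction, and DESeq2 called 0 in each). Of the genes acting with the channels, 2 of 25 passed from 3w to 5m in SC_SYN, beside 8.05% of all genes tested. With DESeq2 10 of the genes acting with the channels passed at this step in input_TH, 8 in SC_TH, 5 in SC_SYN and 2 in input_SYN. From 5m to 18m DESeq2 called 7 of them in input_TH, 1 in each cushion fraction and 0 in input_SYN. The share of all genes that DESeq2 called was not counted, so these counts have no background and are not a result about this list. In edgeR's test in SC_SYN from 3w to 5m Bsn, an active zone scaffold gene, rose by 0.71 on the log2 scale. Rims1, whose product tethers calcium channels at release sites, fell by 0.77. Rims1 also fell by 0.39 in SC_TH, 0.73 in input_SYN and 0.38 in input_TH.

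Oligodendrocyte markers moved with this age step. All 8 fell from 3w to 5m in SC_SYN, with a summed level of 7549 to 9318 CPM at 3w and 2735 to 3067 CPM at 5m, and in SC_TH, with 4574 to 5749 CPM and 2287 to 2458 CPM. In SC_SYN 5 of 8 microglial markers rose, from a summed 485 to 559 CPM to 771 to 949.6 CPM. The read-weighted GC content of SC_SYN libraries was 50.3 to 51.6% at 3w and 51.6 to 52.7% at 5m, and the Cacna1h transcript was the richest in GC of the 10, with 59.95%. With the GC and length offset Cacna1h still rose in SC_SYN by 0.47 (edgeR adjusted p = 0.0179). The part of the cell types in the change of Cacna1h was not tested.

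The change with age was not shown to differ between compartments for any member. In the test of age by compartment 4.03% of all genes passed in ribosome-associated RNA and 1.28% in input RNA, and 0 of 10 members in both (edgeR adjusted p, with 1 member at an unadjusted p under 0.05 in each and 0 called by DESeq2). In the test of age by library type 0.0% of all genes passed in synaptosomes and 15.0% in homogenate, and 0 of 10 members in both, with 0 and 2 members at an unadjusted p under 0.05 and 0 called by DESeq2. With the GC and length offset 3 members passed the test of age by compartment in ribosome-associated RNA, namely Cacna1e, Cacna2d1 and Cacna2d3 (edgeR adjusted p = 0.0214, 0.0173 and 0.0180). With the mouse as a replicate block Cacna1h passed the test of age by library type in homogenate (edgeR adjusted p = 0.0251). Among the genes acting with the channels DESeq2 called 5 for age by compartment in ribosome-associated RNA and 3 in input RNA. For age by library type it called 11 of them in homogenate and 0 in synaptosomes. The share of all genes that DESeq2 called was not counted for these tests either.

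The comparison of the sucrose cushion with the input of the same compartment asked which RNAs are over- or underrepresented in the ribosome-associated pool. In synaptosomes 8 of 30 gene-by-age comparisons passed. Cacna2d3 was higher at all 3 ages, by 0.51 at 3w (SE 0.09, edgeR adjusted p = 0.000355), 0.25 at 5m (adjusted p = 0.0467) and 0.27 at 18m (adjusted p = 0.0464). At 3w its SC_SYN libraries held 283, 297, 256 and 243 CPM and the input_SYN libraries of the same mice 189, 179, 183 and 179 CPM, and all 12 mice had more in the cushion. The 2 L-type genes lay the other way: Cacna1d was lower at 3w (by 0.34) and 18m (by 0.37), Cacna1c at 5m (by 0.24) and 18m (by 0.34), and in none of the 12 mice was either higher in SC_SYN than in input_SYN. Cacna1e passed at 18m (log2 fold change -0.27, SE 0.08). Cacna1c also passed at 3w with the mouse as a replicate block (adjusted p = 0.0485), which made 3 members in place of 2.

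Among all genes 9.04, 9.66 and 5.88% were higher and 9.5, 10.3 and 6.7% lower in SC_SYN than in input_SYN at 3w, 5m and 18m, and of the 10 members 1 was higher at each age and 1, 1 and 3 were lower. With library size the higher share of called genes at 3w went from 48.8 to 59.4%. Leaving out 1 mouse left 1 or 2 calls at 3w, 0 at 5m and 0 to 2 at 18m. Cacna2d3 at 3w kept its call in each of these fits. With the GC and length offset the calls of Cacna1d at 3w (log2 fold change -0.23, adjusted p = 0.115), Cacna1c at 5m (-0.12, adjusted p = 0.336) and Cacna1e at 18m (-0.22, adjusted p = 0.0711) were lost.

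In homogenate 16 of 30 comparisons passed, beside 26.1, 29.9 and 31.3% of all genes higher and 26.6, 32.2 and 32.7% lower at 3w, 5m and 18m. Of the 10 members 3, 3 and 4 were higher and 2, 1 and 3 lower. Cacna1d was lower in SC_TH at all 3 ages by 0.31, 0.34 and 0.42 on the log2 scale, and Cacna2d2 higher at all 3 by 0.26, 0.54 and 0.29. At 5m the SC_TH libraries of Cacna2d2 held 88.9, 61.6, 64.4 and 70.7 CPM against 56.3, 48.4, 53.3 and 53.5 CPM in input_TH, with every mouse higher in the cushion. Cacna2d1 was higher at 3w and 18m, Cacna1c at 3w and 5m and Cacna1e at 5m and 18m, with log2 fold changes of 0.17 to 0.48. Cacna2d3 was higher at 18m (0.18, edgeR adjusted p = 0.0430, lost with DESeq2 at 0.0621 and with library size at 0.163).

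Cacna1h was lower in the cushion of homogenate at 3w by 0.39 (SE 0.09, edgeR adjusted p = 0.000878), with 99.9 ± 8.1 CPM in input_TH and 72.9 ± 11.5 CPM in SC_TH, but the call was lost with the GC and length offset (log2 fold change -0.11, adjusted p = 0.244) and with block and offset (-0.13, adjusted p = 0.150). At 5m the value was -0.021. At 18m it was -0.18 and passed with the mouse as a replicate block (edgeR adjusted p = 0.0174), whereas the block with the GC and length offset gave 0.16 (adjusted p = 0.0399). Cacna1a and Cacna1g were called lower at 18m by 0.20 and 0.22, but they turned to 0.13 and 0.087 with the GC and length offset, where neither passed. At 18m the read-weighted GC content was 51.2 to 52.3% in input_TH and 50.8 to 51.0% in SC_TH, and their transcripts have 58.35 and 58.06% GC. Nuclear RNA moved with this comparison, with a summed level of 19606 to 21549 CPM in input_TH and 6265 to 7397 CPM in SC_TH at 18m. More of it was left in the cushion of homogenate at the younger ages. At 3w it summed to 21584 to 23610 CPM in input_TH and 12315 to 16262 CPM in SC_TH. At 5m the values were 22860 to 23314 CPM and 8728 to 12776 CPM. In synaptosomes the level in the cushion was instead highest at 18m. SC_SYN held 746 to 1227 CPM at 3w, 853 to 1774 CPM at 5m and 1827 to 2995 CPM at 18m. The input_SYN values were 1392 to 2773, 1853 to 2483 and 1888 to 3650 CPM. The part of nuclear RNA in the differences between cushion and input, and in the changes of SC_TH and SC_SYN between ages, was not tested.

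**Figure D4:**
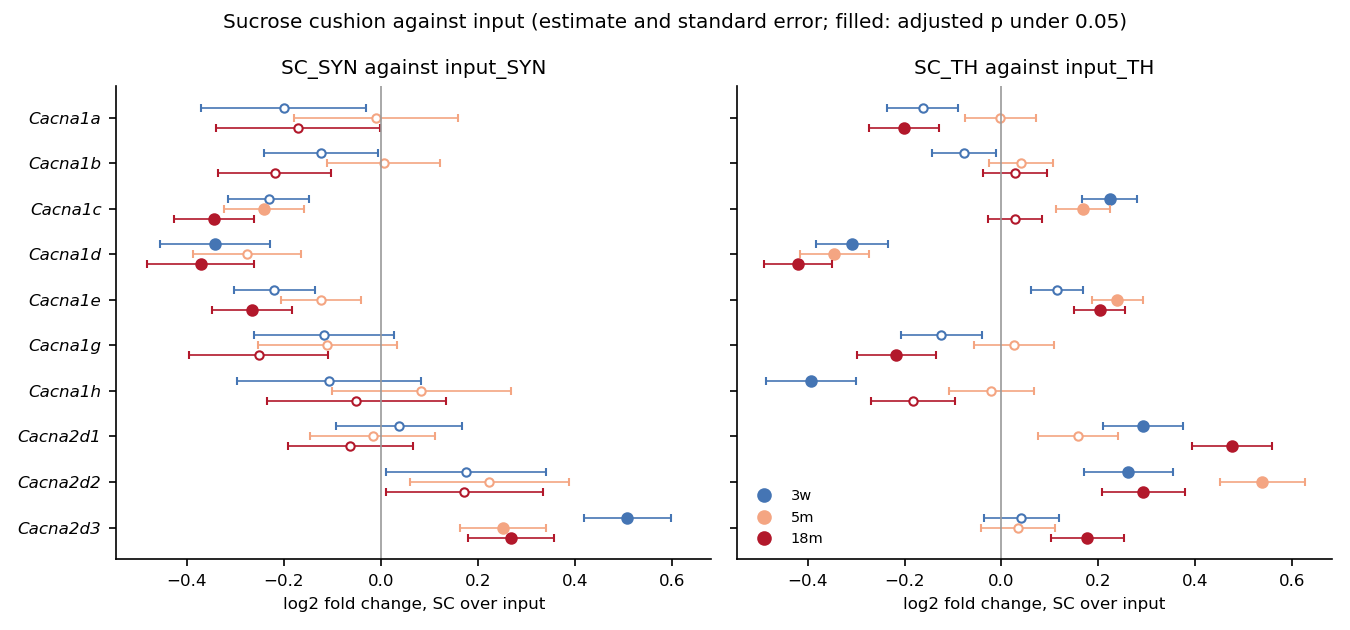
Log2 fold change of the sucrose cushion over input for the 10 genes at 3 ages, in synaptosomes (left) and homogenate (right), with standard errors; filled points passed at adjusted p under 0.05 in edgeR's test. Cacna2d3 lay above 0 at all ages in synaptosomes, and Cacna1d lay below 0 in both panels.

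Of 7 further subunit genes, 0 were higher in SC_SYN than in input_SYN, and 2, 0 and 0 were lower at 3w, 5m and 18m. Of all genes tested, 9.04, 9.66 and 5.88% were higher and 9.5, 10.3 and 6.7% lower. The unadjusted p in edgeR's test was under 0.05 for 3, 1 and 1 of the further subunit genes, and DESeq2 called 3, 0 and 0. At 3w the log2 fold change was -0.32 for Cacna1i and -0.46 for Cacnb2. In homogenate 2, 3 and 3 of 8 were higher, among them Cacnb3 at all 3 ages (0.30, 0.46 and 0.33), and 1, 0 and 1 were lower (Cacna1s at 3w and Cacna2d4 at 18m, both under 3 CPM). Of 25 genes acting with the channels 0, 1 and 0 were higher and 5, 4 and 4 lower in synaptosomes, with the release-site genes Erc2 and Rims1 lower at each age, by 0.62 and 0.53 at 3w, by 0.78 and 0.57 at 5m and by 0.46 and 0.49 at 18m. In homogenate 13, 16 and 14 of 26 were higher and 5, 3 and 7 lower.

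A pair of measures of the make-up of the α1 pool were compared between ages, each with an exact two-sided permutation test of 4 against 4 libraries, which cannot give a p below 0.0286, and with Benjamini-Hochberg adjustment over the 16 tests. The T-type genes Cacna1g and Cacna1h together made up 17.3 ± 1.8% of the per-kilobase level of the 7 α1 genes in SC_SYN at 3w and 21.02 ± 2.2% at 5m (exact p = 0.0571, adjusted 0.152). Cacna1i, a further T-type pore gene, is not among these 7, so this is not the share of all T-type RNA. In SC_SYN at 3w Cacna1i had more CPM than Cacna1g or Cacna1h, and its part in the change of the share was not tested. In SC_TH the share went from 17.7 ± 0.4 to 20.2 ± 0.9%, with no overlap between the ages (exact p = 0.0286, adjusted 0.152). In input_SYN it went from 16.5 ± 2.1 to 20.3 ± 1.1% (exact p = 0.0571, adjusted 0.152). The log2 ratio of Cacna1a over Cacna1b per kilobase, P/Q-type over N-type, was 0.39 ± 0.06 at 3w in input_TH, 0.19 ± 0.08 at 5m and 0.31 ± 0.04 at 18m, and both steps had exact p = 0.0286 with adjusted 0.152. In the synaptosome fractions the ratio varied between -0.10 and 0.47 from library to library, and no step there had an exact p under 0.171. None of the 16 tests passed after adjustment.

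The spread between mice differed among the members. In the 6 synaptosome groups the coefficient of variation had a median of 21.8% for Cacna1h, 17.1% for Cacna1a and 14.4% for Cacna1g, and of 4.7% for Cacna1c and 5.3% for Cacna1e. In the 6 homogenate groups the medians were 8.2, 5.8 and 6.4% for the first 3 genes and 3.5% for each of the other 2. Where Cacna1a was low in a synaptosome library, Cacna1h and Cacna1g often were low too: at 18m the SC_SYN libraries of mice 195 to 198 held 336, 478, 511 and 315 CPM of Cacna1a, 128, 194, 188 and 137 CPM of Cacna1h and 152, 188, 183 and 131 CPM of Cacna1g. Cacna1e did not share this pattern, with 1126, 1247, 1257 and 1264 CPM. The read-weighted GC content of these libraries was 51.1, 51.6, 51.5 and 50.7%. In SC_SYN at 3w the library of mouse 188 had both the lowest GC content of its group, 50.3%, and the lowest Cacna1a and Cacna1h, 338 and 83.0 CPM. The part of GC content in this spread was not tested.

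**Figure D5:**
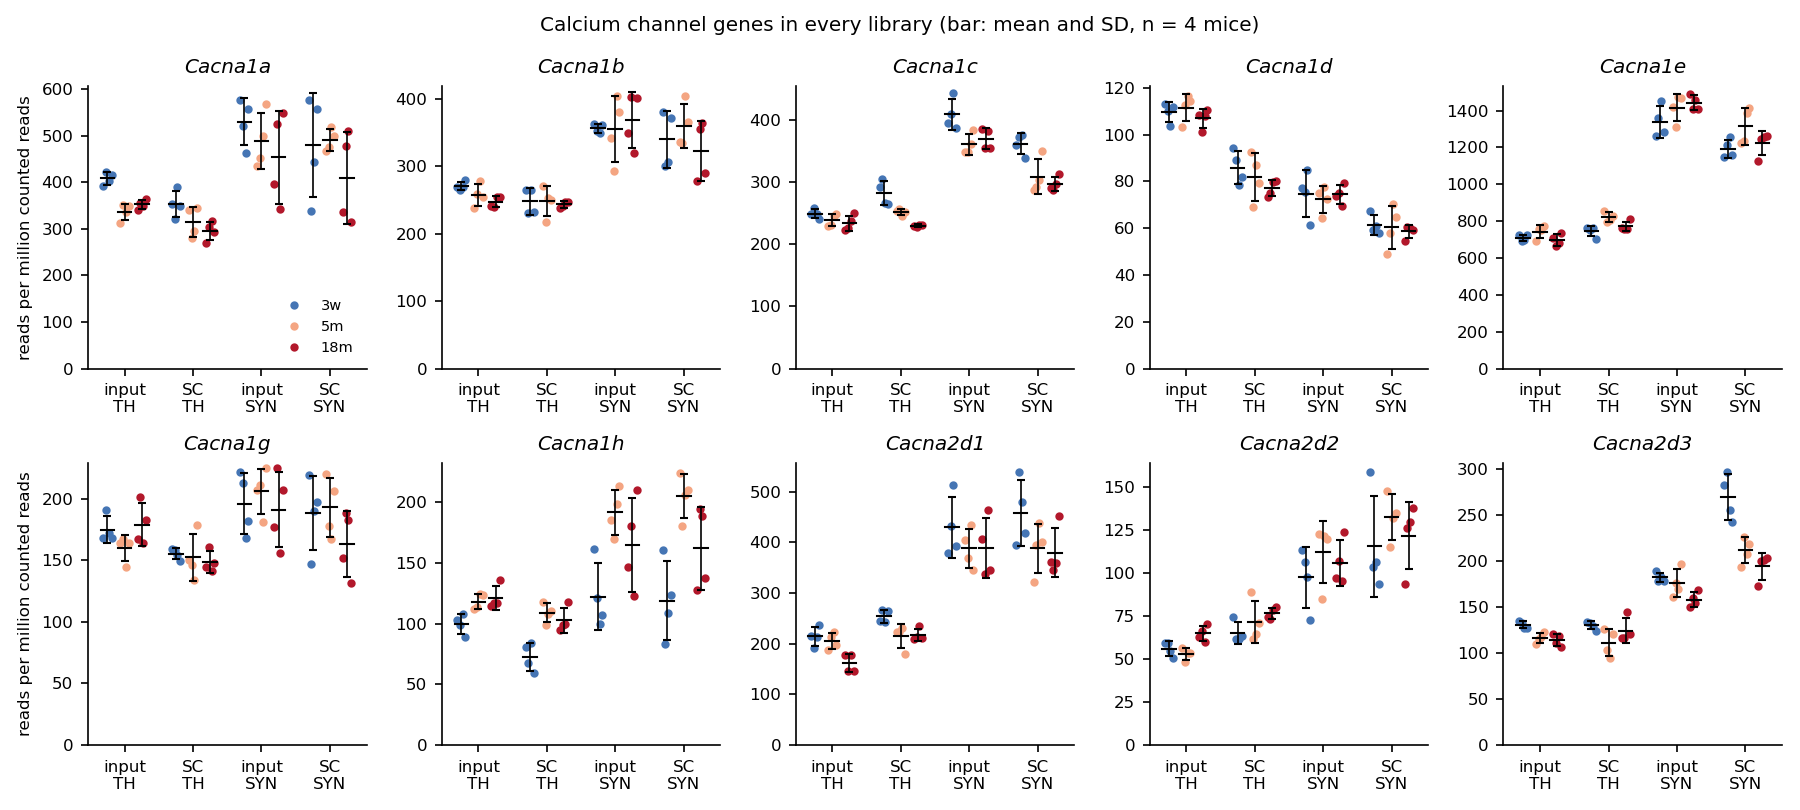
CPM (linear axes from 0, scaled per gene) in all 48 libraries for the 10 genes; points are libraries coloured by age and bars are mean and SD of 4 mice. At each age Cacna1d had a lower mean, and the other 9 genes higher means, in SC_SYN than in SC_TH and in input_SYN than in input_TH in CPM. The mean of Cacna1h was lowest at 3w in every fraction.

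Finally, the protein-coding gene whose mean log2 CPM over the 12 groups was most like each member was identified among 9133 genes. Pearson's r ranged from 0.956 to 0.992, and as the 12 means share the same large step between compartments, such values are common and are given as a description. Cacna1h was most like Smim1 (r = 0.956) and Cacna1g like B4galnt4 (r = 0.957), Cacna1a like Grik5 (r = 0.972), a kainate receptor gene, and Cacna1b like Man1b1 (r = 0.977). Cacna1e was most like Tmx2 (r = 0.992), Cacna1c like Slc37a3 (r = 0.990) and Cacna1d like Akap7 (r = 0.984), which encodes an anchoring protein of protein kinase A. The α2δ genes Cacna2d1, Cacna2d2 and Cacna2d3 were most like Tspan12 (r = 0.991), Celsr2 (r = 0.989) and Sdk1 (r = 0.987).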

How the data were processed

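Total RNA and sucrose cushion RNA from homogenate and synaptosomes were depleted of rRNA, made into directional libraries with adaptors carrying molecular identifiers and sequenced single-end. Per the study's methods and the submitters' processing notes the authors converted reads with bcl2fastq 2.20.0.422, mapped them with TopHat2 2.1 to GRCm38 with Ensembl annotation and assigned them to genes with featureCounts, ignoring strand. Whether the molecular identifiers were used to remove duplicates is not given in the sources used here, so the counting errors cover counting only. The standard errors from edgeR also include the spread between libraries of a group. The deposited values are raw counts of reads per gene in 48 libraries. A total of 48144 of 48526 identifiers matched GENCODE release 21 (GRCm38), and the others held 0.0596% of reads.

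Counts were tested with edgeR 4.0.16 in R 4.3.3 (quasi-likelihood test, TMM, filterByExpr, Benjamini-Hochberg adjustment over all genes tested, threshold 0.05). Ages were compared within a fraction (12 libraries per fit), and compartments and library types in fits of 24 libraries. The age effects were compared between compartments or library types with interaction tests. CPM is the count per 1000000 counted reads, without TMM factors. Alternatives were DESeq2 1.42.0, library size scaling, no filter, all 48 libraries in one fit, an offset for GC content and length (loess span 0.5), the mouse as a block and leaving out each mouse in turn. Libraries of one mouse came from the same animal, so mouse numbers pair the fractions. The median correlation of same-mouse deviations was -0.080 to 0.252 over the 6 pairs of fractions. Ages were of different mice and cannot be paired. edgeR's p-values rest on a spread per gene, estimated within groups and shared by all groups of a fit. The main fits of compartments and library types took libraries of the same mouse as independent, and the pairing entered only in the block alternatives. Sequencing runs are not given per library and could not be compared.

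The members, the gene and marker lists and the tests were chosen with earlier results of these data known. All 10 members are named. Further subunit genes (10) and genes acting with the channels (26) were counted in every comparison and named where adjusted p was under 0.05, at most 4 per direction by size. The gene most like each member was taken from protein-coding genes with a mean of at least 5 CPM in every group. The edgeR procedure was tested on simulated counts with changes planted in known genes.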

Additional observations from a re-analysis of the deposited data

Results flagged for a closer look

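In groups of 4 libraries, 1 library stood apart from the other 3 by Dixon's test in 10 of 120 groups of a member and in 1 of 24 groups of the make-up measures, and chance gives such a gap in about 1 in 20 groups. In SC_SYN at 18m the library of mouse 195 was low for Cacna1e, with 1126 CPM against 1247 to 1264, and for Cacna2d3, with 172 CPM against 200.3 to 203, and that of mouse 198 was high for Cacna2d1, with 452 CPM against 346 to 361. In SC_TH at 18m mouse 198 was high for Cacna1e, with 810.1 CPM against 757 to 763, and mouse 197 was high for Cacna2d3, with 144 CPM against 116 to 121. In SC_TH at 3w mouse 187 was high for Cacna2d2, with 74.3 CPM against 61.3 to 63.1, and at 5m mouse 194 was low for Cacna2d1, with 179.7 CPM against 223 to 231. In input_TH mouse 193 was low for Cacna1g at 5m, with 144 CPM against 164 to 167, and mouse 198 was high for Cacna1h at 18m, with 136 CPM against 114 to 117. In input_SYN at 5m mouse 192 was low for Cacna2d2, with 84.9 CPM against 119 to 122. The log2 ratio of Cacna1a over Cacna1b in SC_SYN at 3w was -0.032 in mouse 188 against 0.34 to 0.40 in the other 3.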

How the results depend on the processing

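Members called per comparison were within 1.5 times the reported count in 124 of 152 values under other settings and in 134 of 160 values with 1 mouse left out. Of 581 log2 fold changes of called members recomputed under other settings 540 kept direction and call, 37 lost the call and 4 reversed, and with 1 mouse left out 324 of 368 kept both and 44 lost the call. The causes were not tested. Fits with 1 mouse left out also had fewer mice, and the part of this was not separated from that of the mouse left out.

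With DESeq2, 2 members passed in SC_SYN from 3w to 5m, 3 in SC_TH, and 4 in SC against input of SYN at 3w. The GC and length offset gave 2, 3 and 1 for these, 1 in input_TH from 5m to 18m, 1 in SC against input of SYN at 5m and 3 in age by compartment in SC. Fitting all 48 libraries together gave 3 in SC_SYN from 3w to 5m, 0 in input_TH at both steps, 1 in age by compartment in SC (Cacna2d3), 4 in SC against input of SYN at 3w and 3 of TH at 18m. Library size gave 2 in SC_TH from 3w to 5m and 1 in SC against input of SYN at 3w and at 5m. Without the filter these last 2 and SYN at 18m gave 1, 0 and 0, and age by library type in TH gave 1.

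With the mouse as a replicate block, which uses that the fractions came from the same animal, age by library type in TH gave 1 member (Cacna1h), SC against input of SYN at 3w gave 3 and of TH at 18m gave 8, and no other call changed. The block with the GC and length offset gave 3 members in age by compartment in SC, 1 in SC against input of SYN at 3w and at 5m, 7 of TH at 5m and 1 in age by library type in TH (Cacna2d1). In SC against input of TH at 18m Cacna1a and Cacna1g reversed to 0.13 and 0.087 with the offset and to 0.12 and 0.089 with block and offset.

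Leaving out 1 mouse gave 1 to 2 members in SC_TH and 0 to 1 in input_SYN from 3w to 5m, 1 to 3 in input_TH from 5m to 18m, and in SC against input 1 to 2, 0 to 0 and 0 to 2 of SYN at 3w, 5m and 18m and 4 to 7 of TH at 18m. Such fits also gave 2 to 3 members in input_TH from 3w to 5m and 9 to 10 in SC_SYN against SC_TH at 5m. In SC against input of TH they gave 4 to 6 at 3w and 3 to 5 at 5m. The change in the log2 ratio of Cacna1a over Cacna1b in SC_SYN from 3w to 5m ranged from -0.13 to 0.020. The change in the share of Cacna1g and Cacna1h in SC_TH from 5m to 18m ranged from -0.036 to 0.67 percentage points. With 3 against 4 mice the smallest exact p is 0.0571, so leaving out a mouse says nothing about those tests. The lowest count of a member in a library was 109 reads. Depth differed between ages: SC_SYN libraries held 5415274 to 6132944 reads at 3w and 8328535 to 14557582 at 5m. In SC_TH the medians were 4448523 reads at 3w, 8643431 at 5m and 12328632 at 18m. The part of depth in the results was not tested.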
